A study of Rattus norvegicus with 6 samples.

Results

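LIN28, IGF2BP and HMGA genes encode regulators of fetal growth that bind RNA or chromatin, and their rat members were the 7 genes Lin28a, Lin28b, Igf2bp1, Igf2bp2, Igf2bp3, Hmga1 and Hmga2. They were taken by gene symbol from 29468 symbols in the deposited transcript tables. RNA-seq was done on 3 samples of Schwann cell precursors (SCPs), dissociated from the sciatic nerves and brachial plexus of embryonic day 14 rats, and on 3 samples of repair Schwann cells (RSCs), dissociated from the distal part of the sciatic nerve of 10-week-old rats 1 week after the nerve was cut. The sample labels give these ages, wild-type LEWIS rats and no drug. The paper gives a range of ages for the adult rats, transgenic LEWIS donors for grafted cells, and anaesthesia with ketamine and medetomidine. Both preparations had a step on an uncoated flask meant to take away adherent fibroblasts and macrophages. The groups differ in age, injury, nerve source and enzyme treatment at once, so these cannot be told apart, and the labels do not say whether the samples of a group came from separate animals, so the p-values measure only the spread between these samples.

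In embryos, LIN28A and LIN28B bind the precursors of let-7 microRNAs and block their maturation. Let-7 in turn represses LIN28, HMGA2 and the IGF2BP mRNAs, so that the families are held in one circuit. IGF2BP proteins bind and stabilise client mRNAs, among them IGF2 and MYC, whereas HMGA proteins bend AT-rich DNA and open chromatin in growing cells. In most adult tissues the circuit is switched off, but HMGA1 can return in proliferating cells.

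Levels are given as FPKM, which is scaled to transcript length and to the mapped fragments of the sample, summed over the named transcripts of a gene. All 7 genes were separate between the groups, in that the RSC values lay all above or all below the SCP values. This was the case for 58.6% of the 13003 genes tested, which do not include Lin28a and Lin28b. Lin28a, Lin28b, Igf2bp1, Igf2bp2, Igf2bp3 and Hmga2 lay lower in every RSC sample than in every SCP sample, and Hmga1 lay higher, as 33.7% and 24.9% of the tested genes did in the same sense. In the SCPs the order was Hmga2 at a mean of 220 FPKM, Hmga1 at 112, Igf2bp2 at 53.5, Igf2bp1 at 37.7, Igf2bp3 at 35.9, Lin28a at 1.22 and Lin28b at 0.918. The ranges of the 3 IGF2BP genes that stand next to each other overlapped there, as did those of Lin28a and Lin28b. In the RSCs the order was Hmga1 at 215 FPKM, Igf2bp2 at 20.9, Hmga2 at 15.6, Igf2bp3 at 0.392, Igf2bp1 at 0.0230, Lin28a at 0.0202 and Lin28b at 0. In that order neighbours overlapped from Igf2bp2 down to Igf2bp3 and from Igf2bp1 down to Lin28b. The median tested gene stood at 8.53 FPKM in the SCPs and 8.12 FPKM in the RSCs.

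**Figure D1:**
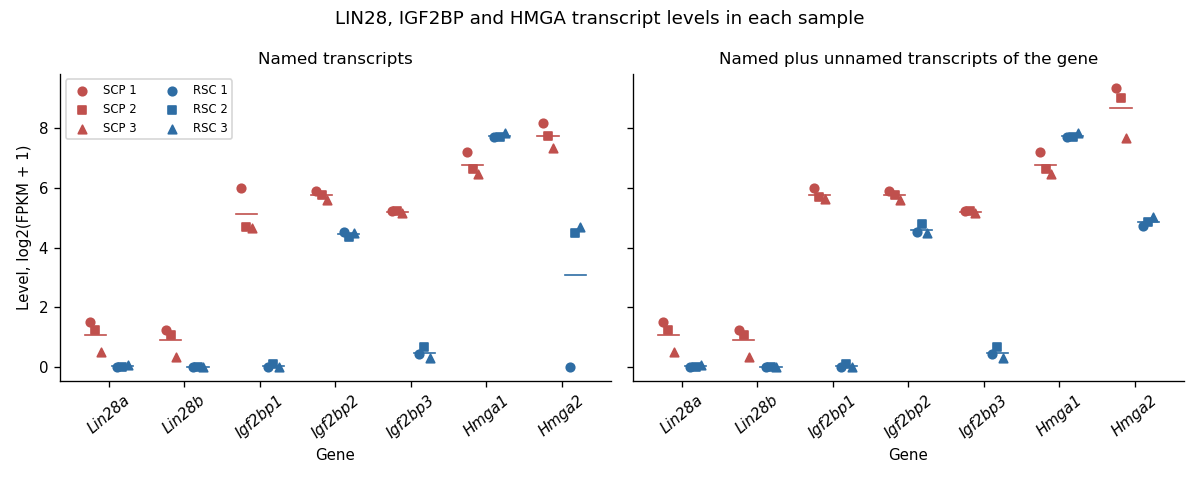
Level of each gene, as log2(FPKM + 1), in the 3 SCP samples (red) and the 3 RSC samples (blue), with marker shape for the replicate number and a bar for the group mean. The left panel uses named transcripts and the right panel adds unnamed transcripts of the same gene, which lifts the RSC 1 value of Hmga2 from 0 to 25.3 FPKM.

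A limma test on log2(FPKM + 1) with calls at an unadjusted p under 0.01 was run on every gene that averaged 1 FPKM or more over the 6 samples. Of the 7 genes, 5 passed this filter, and 4 of these 5 were called, where 40.5% of all tested genes were called. Igf2bp1, Igf2bp2 and Igf2bp3 fell in the RSCs, where 22.4% of all tested genes were lower, and Hmga1 rose, where 18.1% were higher. Igf2bp1 and Igf2bp3 passed the filter only through their SCP level, so the count carries no weight of its own. The same limit holds for the counts of gene lists below, which also hold genes that passed only through the group where they were higher. Trim71 and Tox2 passed through the SCPs in this way, and Cd44, Mapt, Cdkn2a and Cdkn2b through the RSCs. Lin28a and Lin28b stood below the filter.

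Marker genes of other cells differed between the groups, and these values stand beside every result below, with counts to be read against the 18.1% of tested genes that rose and the 22.4% that fell. Sox10, the transcription factor of the Schwann lineage, stood at 179, 175 and 181 FPKM in SCPs 1 to 3 and at 149, 143 and 143 FPKM in RSCs 1 to 3, a difference that passed the threshold as deposited and not with median-of-ratios scaling. The 10 Schwann lineage genes summed to 541 to 629 FPKM in the SCPs and to 1954 to 2493 FPKM in the RSCs, with 4 of the 9 tested rising and 2 falling. S100b and Ngfr made up most of the RSC sum, whereas Gfra3, a receptor for artemin, went from a mean of 92.7 to 0.294 FPKM. The 10 leukocyte genes summed to 22.7 to 47.2 FPKM in the SCPs and 2236 to 2667 FPKM in the RSCs, and 10 of 10 rose. The 8 fibroblast and mesenchyme genes summed to 681 to 1041 FPKM in the SCPs and 5367 to 8026 FPKM in the RSCs. Of these 8, 5 rose and 1, Twist1, fell. On the SCP side, 12 erythroid genes summed to 31502 to 135439 FPKM against 1869 to 2475 FPKM in the RSCs, and 8 skeletal muscle genes to 99.4 to 417 FPKM against 29.7 to 35.5 FPKM. Of the tested erythroid genes 7 of 10 fell, and of the tested muscle genes 6 of 8 fell and Des rose (9.36 to 24.7 FPKM), with Hbe1, Hbe2, Hbz, Myod1 and Myf5 among those listed at 0 in every RSC sample. Neuron genes, 10 in number, summed to 37.5 to 65.6 FPKM in the SCPs and 24.6 to 35.4 FPKM in the RSCs, and 2 of the 7 tested fell. The 6 endothelial genes summed to 37.5 to 60.6 and 63.7 to 71.5 FPKM, and 0 of 6 passed limma at this threshold (2 rose at an unadjusted p under 0.05). The part of these other cells in the results on LIN28, IGF2BP and HMGA was not tested, and in such bulk samples fewer cells of a type and less RNA per cell cannot be told apart.

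**Figure D2:**
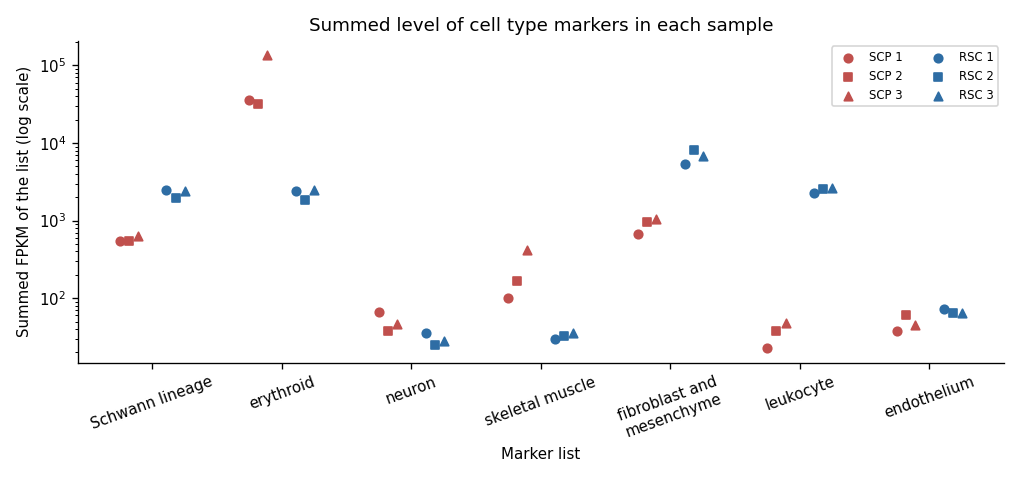
Summed FPKM (log axis) of each marker list in the 3 SCP samples (red) and 3 RSC samples (blue). Erythroid and muscle markers stood higher in the SCPs, highest in SCP 3, and leukocyte and fibroblast markers stood higher in the RSCs.

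The LIN28 genes were the weakest of the group. Lin28a, at chr5:152230343-152247347 of rat build rn6, stood at 1.86, 1.36 and 0.427 FPKM in SCPs 1 to 3 and at 0, 0 and 0.0607 FPKM in RSCs 1 to 3. Lin28b, at chr20:50482536-50576490, stood at 1.36, 1.12 and 0.279 FPKM in the SCPs and was listed at 0 in each RSC sample. Both were highest in SCP 1 and lowest in SCP 3, where the interval that Cufflinks gave ran from 0.164 to 0.709 FPKM for Lin28a and from 0.0698 to 0.489 FPKM for Lin28b. The interval of Lin28a in RSC 3 ran from 0 to 0.304 FPKM and overlapped that of SCP 3. The Lin28b transcript that stood above 0 carried the Cufflinks mark for low data in SCPs 1 to 3. The difference in mean log2(FPKM + 1), RSC minus SCP, was -1.06 for Lin28a and -0.89 for Lin28b, sizes that rest on the pseudocount of 1. Tested with no filter on level, Lin28a had an adjusted p of 0.027 and Lin28b of 0.033 by limma, and both passed the unadjusted threshold, as did 30.2% of the 20494 genes tested, with 16.8% lower in the RSCs. In each SCP sample Lin28a made up 54.8% to 60.5% of the LIN28 total. Lin28c, named after its values were seen and another symbol of the family in the tables, was listed at 0 in all 6 samples.

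The let-7 family, which LIN28 holds back, shares 1 seed, the bases 2 to 8 by which a microRNA pairs with its targets. Among the RefSeq microRNAs, 9 distinct mature sequences carry it, of which 4 are shown to display the common seed (capitals) and how the rest varies.
let-7c-5p: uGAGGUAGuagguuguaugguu
let-7d-5p: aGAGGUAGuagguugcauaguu
let-7i-5p: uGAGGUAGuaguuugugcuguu
miR-98-5p: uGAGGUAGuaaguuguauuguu

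LIN28 holds on to the precursor through its zinc knuckles, which read the letters GGAG near the start of the 3p arm. Of the 8 let-7 family hairpins with both arms listed, 6 had GGAG on the written strand between the arms, against 9.13% of the 263 hairpins with 2 arms listed. A hairpin with the letters and a hairpin without are shown, both from RefSeq on build GRCr8, with GGAG in capitals. The let-7i hairpin lies at chr7:60527877-60527961 on the minus strand and the miR-98 hairpin at chrX:24460648-24460755 on the plus strand.
let-7i: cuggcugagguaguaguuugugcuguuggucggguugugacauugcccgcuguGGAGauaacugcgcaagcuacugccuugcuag
miR-98: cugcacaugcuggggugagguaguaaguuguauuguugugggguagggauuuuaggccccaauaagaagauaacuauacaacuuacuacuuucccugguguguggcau

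The match is a description of letters and not of binding. The libraries were made from mRNA, and the 10 let-7 symbols in the tables were listed at 0 in all 6 samples, so let-7 itself is not measured here.

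Genes that make, use and break down let-7 were lower in the RSCs where they were called. Of the 16 tested, 11 fell and 0 rose by limma (0 rose at an unadjusted p under 0.05 as well), where 22.4% of all tested genes fell and 18.1% rose, with a median log2 fold change of -1.39 against -0.17 for all tested genes. With median-of-ratios scaling, 7 of the 16 fell, where 16.9% of all tested genes did. Tnrc6a, the scaffold of the silencing complex, stood at 28.4, 27.3 and 27.9 FPKM in the SCPs and 11.6, 4.84 and 6.76 FPKM in the RSCs, and it fell by 1.80 on the log2 scale (SE 0.29, adjusted p = 0.0035). Trim71, the stem cell ubiquitin ligase LIN41 and itself a let-7 target, stood at 1.61, 3.39 and 2.52 FPKM in the SCPs and was listed at 0 in each RSC sample (adjusted p = 0.0031). Prkra, the Dicer partner PACT, stood at 79.0, 72.3 and 63.3 FPKM in the SCPs and 25.8, 19.7 and 21.2 FPKM in the RSCs (-1.64, SE 0.14, adjusted p = 0.00033). These are the 3 with the largest fall among those called, so that their groups stand apart follows from the choice. With unnamed transcripts of the same gene added, Tnrc6a stood at 41.9, 34.3 and 34.3 FPKM in the SCPs and 13.9, 18.7 and 16.8 FPKM in the RSCs (-1.12), and Prkra stood at 239, 89.4 and 199.9 FPKM in the SCPs and 25.8, 31.6 and 30.2 FPKM in the RSCs (-2.44).

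Zcchc11, the uridylyl transferase TUT4 that LIN28 recruits to let-7 precursors, was listed at 0 in all 6 samples among named transcripts. It is named here after its values were seen. With unnamed transcripts of the same gene added, it stood at 49.2, 53.3 and 57.8 FPKM in the SCPs and 9.45, 5.68 and 4.51 FPKM in the RSCs, and it fell by 2.90 on the log2 scale. With those transcripts added throughout, 13 of 20 let-7 processing genes fell and 0 rose (1 at an unadjusted p under 0.05), where 34.2% of all tested genes fell and 23.2% rose.

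Targets that let-7 is known to repress went both ways. Of 32 tested, 6 (18.8%) rose and 12 (37.5%) fell, against 18.1% and 22.4% of all tested genes, with a median log2 fold change of -0.49 against -0.17. The share that rose was near that of all genes. Trim71 and Dicer1 fell and are also on the let-7 processing list, so the counts of the lists overlap. Dicer1 is named here after its values were seen. Peg10, an imprinted placental gene, stood at 8.60, 20.9 and 29.6 FPKM in the SCPs and 0.852, 2.93 and 1.56 FPKM in the RSCs (-2.81, SE 0.50, adjusted p = 0.0056). Cdc25a, the cell cycle phosphatase, stood at 35.0, 27.8 and 21.0 FPKM in the SCPs and 2.76, 4.28 and 2.40 FPKM in the RSCs (-2.80, SE 0.26, adjusted p = 0.00044). Arid3b, a DNA-binding factor, stood at 12.8, 10.2 and 7.95 FPKM in the SCPs and 1.75, 0.440 and 1.29 FPKM in the RSCs (-2.42, SE 0.32, adjusted p = 0.0017). With unnamed transcripts added, Peg10 stood at 77.8, 73.3 and 65.4 FPKM in the SCPs (-4.78), without the order among the SCPs that the named transcripts showed, and Cdc25a stood at 44.9, 27.8 and 27.7 FPKM in the SCPs and 8.09, 6.37 and 7.34 FPKM in the RSCs (-2.03).

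In the other direction, Thbs1, the matrix protein thrombospondin, stood at 6.43, 7.91 and 9.41 FPKM in the SCPs and 65.4, 65.2 and 40.8 FPKM in the RSCs (2.69, SE 0.23, adjusted p = 0.00036). Gas7, a cytoskeletal adaptor, stood at 55.4, 61.6 and 77.4 FPKM in the SCPs and 383, 360 and 375 FPKM in the RSCs (2.52, SE 0.13, adjusted p = 6.0e-05). Myc, the growth factor-induced transcription factor, stood at 9.17, 9.73 and 14.0 FPKM in the SCPs and 33.2, 37.9 and 27.4 FPKM in the RSCs (1.51, SE 0.20, adjusted p = 0.0019).

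LIN28 proteins also have a cold shock domain, a fold they share with the Y-box proteins. Of the 6 other cold shock genes 1 rose and 2 fell, against 18.1% and 22.4% of all tested genes. Carhsp1 stood at 55.0, 53.1 and 62.1 FPKM in the SCPs and 95.4, 96.0 and 105 FPKM in the RSCs (0.79, SE 0.09). Ybx1, the abundant mRNA-packaging protein, stood at 524, 442 and 417 FPKM in the SCPs and 273, 263 and 291 FPKM in the RSCs (-0.74, SE 0.10). Csdc2 stood at 4.21, 16.5 and 20.7 FPKM in the SCPs and 1.56, 1.51 and 1.33 FPKM in the RSCs (-2.35, SE 0.55). With unnamed transcripts added, 2 rose and 4 fell, where 23.2% and 34.2% of all tested genes did.

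The IGF2BP family lost most of its transcripts in the RSCs, and what was left was nearly all Igf2bp2. The 3 genes summed to 159, 115 and 107 FPKM in SCPs 1 to 3 and to 22.3, 19.98 and 21.6 FPKM in RSCs 1 to 3. Igf2bp2 was 42.8% ± 4.79 (SD, n = 3) of the sum in the SCPs and 98.0% ± 1.16 (SD, n = 3) in the RSCs.

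**Figure D3:**
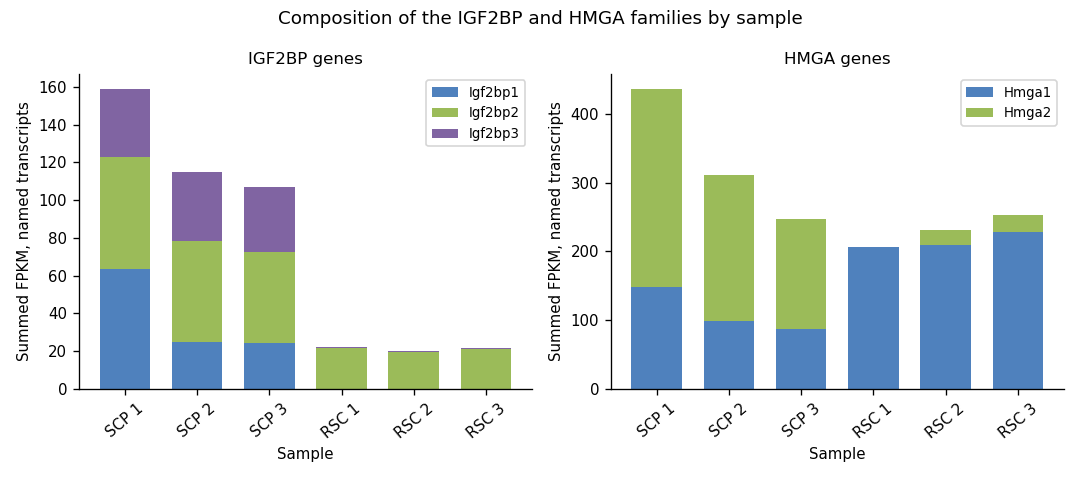
Summed FPKM of named transcripts by gene and sample, for the IGF2BP genes (left) and the HMGA genes (right). Igf2bp2 made up 96.7% to 98.9% of the IGF2BP sum in the RSC samples, and Hmga1 made up 90.1% to 100% of the HMGA sum there.

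Igf2bp1, the zipcode-binding protein that carries beta-actin mRNA, lies at chr10:83774178-83823317 (rn6). It stood at 63.4, 25.0 and 24.6 FPKM in the SCPs and at 0, 0.0691 and 0 FPKM in the RSCs. SCP 1 was over the other SCP samples, and every RSC sample was at or next to 0. The log2 fold change was -5.10 (SE 0.39, adjusted p = 0.00024 by limma), and with RSC values at 0 its size rests on the pseudocount, at -8.16 with a pseudocount of 0.1. In SCP 2 and SCP 3 an unnamed transcript of 8451 bases, as against 8448 for the named one, ran over the same span with 25.5 and 24.4 FPKM. When these were added, SCPs 1 to 3 stood at 63.4, 50.5 and 48.9 FPKM, the coefficient of variation among them went from 59.2% to 14.6%, and the log2 fold change was -5.75 (SE 0.14, adjusted p = 1.3e-06).

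Igf2bp3, the family member that is most restricted to fetal and tumour tissue, lies at chr4:78744689-78879459. It stood at 36.3, 36.8 and 34.6 FPKM in the SCPs, with a coefficient of variation of 3.24%, and at 0.357, 0.589 and 0.230 FPKM in the RSCs. The ratio of the group means was 91.6, and the log2 fold change was -4.74 (SE 0.17, adjusted p = 2.5e-05). Of its 4 reference transcripts 2 were above 0 in some sample. SCP 1 had one of them alone, at 36.3 FPKM, whereas SCP 2 and SCP 3 had both, at 23.4 and 13.4 FPKM and at 22.6 and 11.9 FPKM.

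Igf2bp2, the member that remains in adult tissues, lies at chr11:82466071-82621105. It stood at 59.4, 53.2 and 47.9 FPKM in the SCPs and at 21.9, 19.3 and 21.3 FPKM in the RSCs. The gap between the groups was wider than the range within either, and the gene fell by 1.31 on the log2 scale (SE 0.11, adjusted p = 0.00035). Igf2bp1 and Igf2bp3 were called with over 4-fold lower FPKM + 1, as were 3.78% of all tested genes, whereas Igf2bp2 did not reach 4-fold. The difference between the log2 fold changes of the 3 genes was not tested.

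IGF2BP client mRNAs went in both directions, with 5 of 11 tested rising and 2 falling, against 18.1% and 22.4% of all tested genes, and a median log2 fold change of -0.22 against -0.17. The share that fell and the median were near those of all genes. Igf2, the fetal growth factor from which the family takes its name, stood at 1084, 1180 and 1066 FPKM in the SCPs and 68.6, 87.5 and 74.5 FPKM in the RSCs (-3.84, SE 0.10, adjusted p = 1.4e-05). H19, the non-coding RNA of the same imprinted locus, stood at 2401, 2411 and 2845 FPKM in the SCPs and 741, 1050 and 891 FPKM in the RSCs (-1.52, SE 0.14, adjusted p = 0.00049). Both stayed well above 0 in the RSCs, which Igf2bp1 did not. Cd44, the hyaluronan receptor, stood at 0.709, 0.788 and 1.49 FPKM in the SCPs and 82.9, 75.1 and 83.2 FPKM in the RSCs (5.37, SE 0.18, adjusted p = 2.4e-05). Mapt, which encodes tau, stood at 1.04, 0.284 and 0.132 FPKM in the SCPs and 3.42, 4.20 and 4.45 FPKM in the RSCs (1.80, SE 0.29, adjusted p = 0.0040). Myc, already given above, was the third client by size among those that rose.

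IGF2BP proteins read the RNA mark m6A, and the genes that write, erase and read it were counted in the same way. Of 18 tested, 6 fell and 0 rose by limma (11 and 0 at an unadjusted p under 0.05), where 22.4% and 18.1% of all tested genes did, with a median of -0.77. With median-of-ratios scaling 3 of the 18 fell, which is the share of all tested genes that fell there (16.9%), and with unnamed transcripts added 12 fell, where 34.2% of all tested genes did. Hnrnpc, an RNA-packaging reader, stood at 121, 119 and 107 FPKM in the SCPs and 40.9, 37.4 and 42.5 FPKM in the RSCs (-1.50, SE 0.09). Hnrnpa2b1, also a reader, stood at 635, 649 and 574 FPKM in the SCPs and 273, 195 and 273 FPKM in the RSCs (-1.34, SE 0.15). Ythdf1, which promotes translation of marked mRNAs, stood at 29.6, 28.6 and 26.6 FPKM in the SCPs and 11.1, 9.42 and 19.7 FPKM in the RSCs (-1.09, SE 0.27), and it missed the threshold with median-of-ratios scaling (-0.89). RSC 3 was well above the other RSC samples for this gene among named transcripts, but not with unnamed transcripts added, at 17.9, 17.5 and 19.7 FPKM in the RSCs and 43.8, 40.1 and 37.7 FPKM in the SCPs.

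The HMGA pair changed places. Hmga2 made up 66.3% ± 1.69 (SD, n = 3) of the HMGA sum in the SCPs and 6.43% ± 5.58 (SD, n = 3) in the RSCs, where Hmga1 made up the rest. The sum itself was 437, 312 and 247 FPKM in the SCPs and 207, 231 and 254 FPKM in the RSCs, so SCP 3 lay within the RSC range. With unnamed transcripts of the same gene added, the sum was 807, 620 and 292 FPKM in the SCPs and 232, 237 and 260 FPKM in the RSCs, and the groups did not overlap.

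The promoters of the pair also differ in letters, and they are shown with that of Igf2bp3 because Hmga1 rose while Hmga2 and Igf2bp3 stood lower. Each is the 250 bases before the start of the gene in RefSeq on build GRCr8, where 6 of the 7 genes were matched. Hmga1 lies at chr20:5613258-5613507 on the plus strand, Hmga2 at chr7:57880342-57880591 on the minus strand and Igf2bp3 at chr4:79525731-79525980 on the minus strand. Capitals mark GGGCGG (the GC box) and CACGTG (the E-box) on either strand.
Hmga1: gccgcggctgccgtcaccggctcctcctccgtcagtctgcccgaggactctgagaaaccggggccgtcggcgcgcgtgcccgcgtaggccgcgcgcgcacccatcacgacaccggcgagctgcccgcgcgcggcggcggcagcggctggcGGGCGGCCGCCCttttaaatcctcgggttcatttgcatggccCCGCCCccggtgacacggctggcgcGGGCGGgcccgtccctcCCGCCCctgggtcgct
Hmga2: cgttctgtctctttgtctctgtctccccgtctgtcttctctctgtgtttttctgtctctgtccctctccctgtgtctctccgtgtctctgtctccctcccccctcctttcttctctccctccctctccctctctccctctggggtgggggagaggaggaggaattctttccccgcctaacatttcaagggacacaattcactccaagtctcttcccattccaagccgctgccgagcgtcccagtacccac
Igf2bp3: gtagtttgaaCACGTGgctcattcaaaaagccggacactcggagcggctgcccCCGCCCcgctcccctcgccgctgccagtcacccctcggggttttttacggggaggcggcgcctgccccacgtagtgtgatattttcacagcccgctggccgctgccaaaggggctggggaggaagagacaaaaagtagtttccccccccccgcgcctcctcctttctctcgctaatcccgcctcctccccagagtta

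The Hmga1 window had 5 GC boxes and 41 CpG pairs, the Hmga2 window had 0 GC boxes and 7 CpG pairs, and the Igf2bp3 window had 1 GC box, 1 E-box and 19 CpG pairs. GC boxes were in 30.5% and E-boxes in 5.59% of 33469 promoter windows of the same length, whose median was 5 CpG pairs. TGANTCA (AP-1), CCAAT and TATAAA were searched on both strands as well, were in 6.34%, 34.0% and 12.9% of all windows, and were in none of these 3. In the Igf2bp2 window, which is not shown, there were 6 GC boxes and 39 CpG pairs, although that gene fell. The Lin28a and Lin28b windows held 5 and 2 CpG pairs and none of the motifs. The matches are letters only, and these data do not measure binding.

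Hmga1 lies at chr20:7132490-7140155 (rn6). It stood at 148, 99.4 and 87.0 FPKM in the SCPs and at 207, 209 and 228 FPKM in the RSCs. All 3 RSC samples lay above the highest SCP sample, and the spread among the SCPs was the larger. The ratio of the means was 1.93, and the log2 fold change was 0.98 (SE 0.20, adjusted p = 0.0094). It missed the threshold when SCP 2, RSC 1, RSC 2 or RSC 3 was left out, with log2 fold changes from 0.91 to 1.00. Unadjusted p by limma was then 0.014, 0.011, 0.011 and 0.014, and adjusted p was 0.036, 0.031, 0.032 and 0.037.

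The RSC reads of Hmga1 were all given to 1 of its 8 reference transcripts, of 1613 bases, whereas that transcript had 113, 37.9 and 65.6 FPKM in the SCPs and 4 others made up the difference. Among single transcripts the log2 difference was therefore larger, at 1.70 for the highest transcript of the gene. In each RSC sample the FPKM lay just over the upper bound that Cufflinks gave for it, for example 207 against 204 in RSC 1. The RGD1564450 gene overlaps the span of Hmga1 and was listed at 0 in all samples.

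Hmga2 lies at chr7:65159944-65275408. Its single reference transcript, of 805 bases, stood at 289, 212 and 160 FPKM in the SCPs and at 0, 21.6 and 25.1 FPKM in the RSCs. The groups did not overlap, but the 0 in RSC 1 made the RSC group wide. The log2 fold change of -4.68 (SE 1.28) narrowly missed the threshold, at an unadjusted p of 0.011 by limma (adjusted p = 0.027). Without RSC 1 it was -3.14, with an adjusted p of 0.0017 by limma.

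The 0 of RSC 1 stood beside a transcript. In that sample Cufflinks assembled an unnamed transcript of 3844 bases over the gene at 25.3 FPKM, next to the 21.6 and 25.1 FPKM of the named one in the other RSC samples. With unnamed transcripts of the same gene added, Hmga2 stood at 659, 521 and 205 FPKM in the SCPs and at 25.3, 28.0 and 31.3 FPKM in the RSCs. The log2 fold change was then -3.83 (SE 0.41, adjusted p = 0.00027), and all 5 tested genes were called, where 57.4% of 14019 genes were called. The share of Hmga2 in the HMGA sum was 78.6% ± 7.36 (SD, n = 3) in the SCPs and 11.6% ± 0.612 (SD, n = 3) in the RSCs on this count.

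Most of the assembled Hmga2 transcripts ran past the end of the reference model. In SCP 1 they reached 2965 bases below its lowest coordinate. In SCP 3, RSC 2 and RSC 3 a separate piece covers that stretch under another gene number, at 174, 29.8 and 33.9 FPKM. With every unnamed transcript that overlaps the gene or lies within 1000 bases of it, a sum chosen after seeing the data, Hmga2 stood at 659, 521 and 379 FPKM in the SCPs and 25.3, 57.8 and 65.2 FPKM in the RSCs, with a log2 fold change of -3.44 (SE 0.40, adjusted p = 0.00077). The direction was the same in each sum, and the size went from -4.68 to -3.44. Levels of the named transcript in the SCPs lay above their own Cufflinks interval, for example 289 against an upper bound of 250 in SCP 1, and carried the mark for low data.

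**Figure D4:**
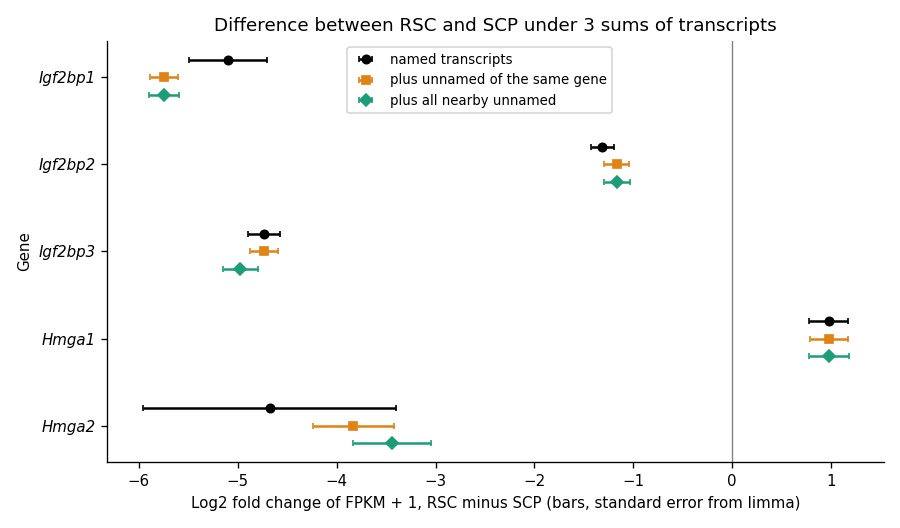
Log2 fold change of FPKM + 1, RSC minus SCP, for the 5 tested genes, with the standard error from limma as bars and 1 symbol for each sum of transcripts. Hmga1 alone lies right of 0, and the wide bar of Hmga2 for named transcripts (SE 1.28) narrows when unnamed transcripts are added (SE 0.41).

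Other high mobility group genes encode abundant non-histone chromatin proteins, and those called were lower in the RSCs. Of 15 tested, 10 fell and 0 rose by limma (14 and 0 at an unadjusted p under 0.05), where 22.4% and 18.1% of all tested genes did, with a median of -0.94. Hmgb2, a DNA-bending protein of dividing cells, stood at 211, 169 and 130 FPKM in the SCPs and 25.5, 25.4 and 24.9 FPKM in the RSCs (-2.68, SE 0.18, adjusted p = 0.00014). Hmgb3 stood at 79.9, 66.8 and 60.2 FPKM in the SCPs and 10.7, 10.0 and 9.61 FPKM in the RSCs (-2.65, SE 0.13, adjusted p = 5.4e-05). Tox2 stood at 12.0, 5.27 and 8.53 FPKM in the SCPs and 0.458, 1.04 and 0.443 FPKM in the RSCs (-2.50, SE 0.33, adjusted p = 0.0018).

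Genes taken as targets of HMGA proteins split. Of 8, 3 rose and 4 fell, Igf2bp2 among the latter, where 18.1% and 22.4% of all tested genes did. Cdkn2a and Cdkn2b, among those that rose, passed the filter only through their RSC level, so the count that rose carries no weight of its own. Cdkn2b, which encodes the cell cycle inhibitor p15, stood at 0.0834, 0.0779 and 0.156 FPKM in the SCPs and 19.3, 22.5 and 20.4 FPKM in the RSCs (4.30, SE 0.17, adjusted p = 3.0e-05). Cdkn2a, the neighbouring inhibitor locus that HMGA2 represses in young stem cells, was listed at 0 in the SCPs and stood at 2.84, 4.12 and 2.78 FPKM in the RSCs (adjusted p = 0.00093). Junb, an AP-1 subunit, stood at 20.2, 27.6 and 27.9 FPKM in the SCPs and 219, 183 and 195 FPKM in the RSCs (2.94, SE 0.15, adjusted p = 5.9e-05).

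Beside Igf2bp2, those that fell were Twist1, a regulator of mesenchyme, and a pair of cyclins. Ccna2 stood at 53.1, 38.3 and 50.2 FPKM in the SCPs and 8.30, 5.59 and 13.3 FPKM in the RSCs (-2.32, SE 0.31, adjusted p = 0.0017). Ccnb2 stood at 29.0, 28.0 and 26.7 FPKM in the SCPs and 7.35, 11.3 and 12.5 FPKM in the RSCs (-1.37, SE 0.20, adjusted p = 0.0026). Twist1 stood at 21.7, 20.5 and 11.9 FPKM in the SCPs and 2.41, 6.01 and 4.51 FPKM in the RSCs (-1.86, SE 0.35, adjusted p = 0.0069), and it is also on the fibroblast list.

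Genes of DNA replication and mitosis that were called were lower in the RSCs. Of 11 tested, 9 fell and 0 rose by limma (9 and 0 at an unadjusted p under 0.05), where 22.4% and 18.1% of all tested genes did, with a median of -1.46. Aurkb, a mitotic kinase, stood at 44.3, 38.3 and 38.0 FPKM in the SCPs and 10.6, 6.70 and 9.32 FPKM in the RSCs (-2.08, SE 0.18). Bub1, a spindle checkpoint kinase, stood at 33.6, 22.7 and 20.1 FPKM in the SCPs and 5.65, 5.18 and 4.38 FPKM in the RSCs (-2.10, SE 0.22). Ccna2, given above, is on this list too. Rrm2 (-0.21) and Mcm5 (-1.54) missed the threshold among named transcripts. With unnamed transcripts added, Mcm5 passed it (-1.99) and Rrm2 did not (-0.21). Pcna, which fell by 0.83 among named transcripts, missed it on that sum (-0.25). These 3 are named after their values were seen.

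**Figure D5:**
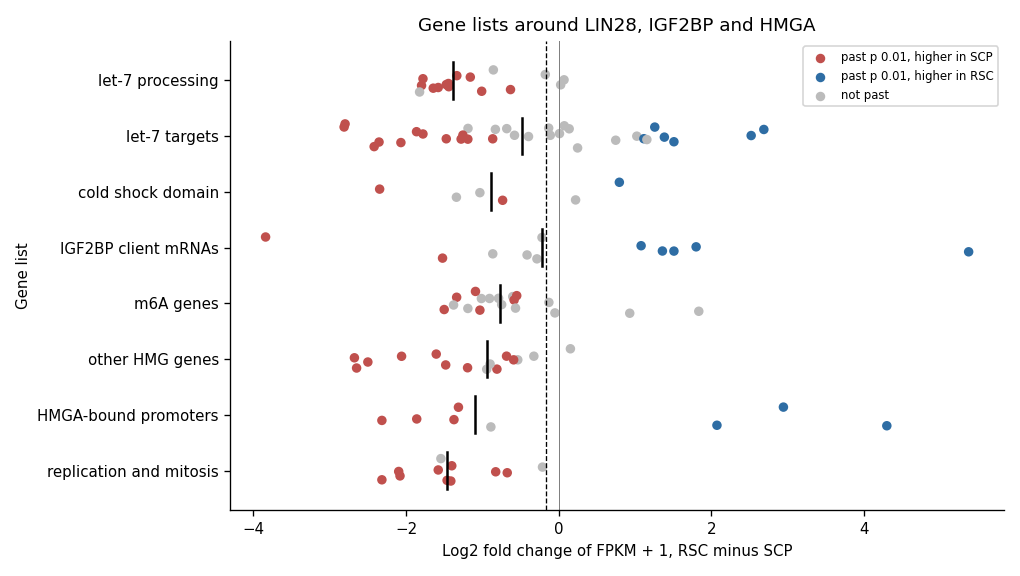
Log2 fold change of FPKM + 1, RSC minus SCP, for each tested gene (points) of 8 lists, coloured where the gene passed p under 0.01, with the list median as a bar and the median of all tested genes (-0.17) as a dashed line. Let-7 processing, m6A, other HMG and replication genes had 0 calls higher in the RSCs, where 18.1% of all tested genes rose. Let-7 targets, cold shock genes, IGF2BP clients and HMGA targets (labelled HMGA-bound promoters) had calls on both sides.

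Among the SCP samples most of the 7 genes stood highest in SCP 1 and lowest in SCP 3. SCP 1 was highest for 6 of the 7 and SCP 3 lowest for 7 of 7. SCP 3 also had the most globin, with 9 globin genes at 22.5% of named FPKM against 7.23% and 6.09% in SCP 1 and SCP 2 and 0.387% to 0.504% in the RSCs, and the most muscle marker FPKM, at 417 against 99.4 and 168. Igf2bp3 was highest in SCP 2 (36.8 FPKM). After median-of-ratios scaling SCP 3 was lowest for 5 of the 7, and Igf2bp3 was lowest in SCP 1. Without SCP 3 the same 4 genes were called, with log2 fold changes of -5.32 for Igf2bp1, -1.39 for Igf2bp2, -4.76 for Igf2bp3 and 0.82 for Hmga1, and 10 let-7 processing genes, 5 m6A genes, 10 other HMG genes and 8 replication genes fell, where 20.2% of all tested genes did.

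For each tested gene the most similar pattern over the 6 samples was looked up by Pearson's r of log2(FPKM + 1), which is a description over samples that fall into 2 groups. Igf2bp1 was most like LOC102550169 (r = 0.9996) and Cacng7 (r = 0.9995), a calcium channel subunit, both listed at 0 in the RSCs. Igf2bp2 was most like Wdr6 and Sf1 (both r = 0.9992), and Igf2bp3 was most like Map2k6 (r = 0.9998), a stress kinase, and Vash2 (r = 0.9997), a tubulin carboxypeptidase. Hmga1 was most like Nbn (r = 0.9988), a DNA repair protein, at 12.7, 9.73 and 8.58 FPKM in the SCPs and 15.7, 15.8 and 16.5 FPKM in the RSCs, and then Col4a3bp (r = 0.9935). Hmga2 was most like Tet2 (r = 0.9982), which oxidises methylated cytosine, and S100pbp (r = 0.9977), both of which were listed at 0 in RSC 1 as Hmga2 was. These patterns are those of named transcripts only. With unnamed transcripts of the same gene added, Hmga2 stood at 25.3 FPKM in RSC 1, and Igf2bp1 at 63.4, 50.5 and 48.9 FPKM in the SCPs. The most similar genes were not looked up on that sum.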

How the data were processed

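RNA-seq was done on 3 SCP and 3 RSC samples from stranded mRNA libraries sequenced as read pairs. The authors deposited, for each sample, a Cufflinks table of transcripts with FPKM, its interval and the read coverage (signal), on rat build rn6. The submitters' processing notes name FastQC 0.11.2, TopHat2 2.1.0 and Cufflinks 2.2.1. The tables hold no counts, so depth is unknown; the ratio of deposited coverage to FPKM put the relative depth of the samples at 0.79 to 1.00. A value of 0 can be a failed estimate, and such a gene is said to be listed at 0.

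FPKM of named transcripts were summed by symbol, and 77 transcripts a table whose symbols had become dates were left out. Unnamed transcripts, 18.6% to 31.9% of FPKM, were added to the overlapping gene of the same gene_id as a second estimate. Genes that averaged 1 FPKM or more were tested on log2(FPKM + 1) with limma 3.58.1 (variance trend, two-sided) in R 4.3.3, called at p under 0.01, with Benjamini-Hochberg adjustment over all 13003 genes; a fold change on this scale understates that of low genes. An exact permutation test of 3 against 3 cannot go below p = 0.1 and was not used. The script was tested on simulated data.

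The 7 genes and the gene lists were chosen with earlier results of these data known. Genes named were the 7, the 3 of each list with the largest log2 fold change in each direction among those called, the 2 most similar genes of each tested member, and marker genes; some markers are not reported here by name. Genes named outside this rule are said to be so where they stand. Alternatives were another pseudocount, filter, scaling, variance model, transcript sum and threshold, a replicate block, leaving out zeros, and leaving out each sample.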

Additional observations from a re-analysis of the deposited data

How the results depend on the processing

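Igf2bp1, Igf2bp2 and Igf2bp3 stayed lower in the RSCs and past p under 0.01 under every alternative run. Hmga1 stayed higher throughout, with log2 fold changes of 0.82 to 1.20 when 1 sample was left out and of 0.89 to 1.70 under the other alternatives, and missed the threshold without SCP 2 (0.91), RSC 1 (1.00), RSC 2 (0.99) or RSC 3 (0.93). Hmga2 stayed lower and passed the threshold with unnamed transcripts of the same gene_id added (-3.83), with all nearby unnamed transcripts added (-3.44), and with values of 0 left out or without RSC 1 (both -3.14), with a leave-one-out range of -5.50 to -3.14. The untested differences of Lin28a and Lin28b were -3.29 and -3.13 with a pseudocount of 0.1, with leave-one-out ranges of -1.35 to -0.85 and -1.16 to -0.72. The number of genes called went from 5268 to 8040 with unnamed transcripts of the same gene_id. Median-of-ratios scaling moved the median log2 fold change of all tested genes from -0.17 to 0.0092 and the share of calls that were higher in the RSCs from 44.6% to 55.7%.

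Deviations of same-numbered SCP and RSC samples correlated at 0.044, -0.0049 and 0.026, which cannot show whether same-numbered samples were prepared together. With a replicate block 4275 genes were called, Hmga1 had an adjusted p of 0.027 and no call among the 7 genes changed. Let-7 processing genes that fell numbered 7 and not 11 without SCP 2, without RSC 3 and at an adjusted p under 0.01. Cold shock genes that fell numbered 1 and not 2 without SCP 3, RSC 1 or RSC 3, those that rose 2 and not 1 without SCP 1, and 1 m6A gene rose without RSC 2. The causes of these changes were not tested. Absolute depth is unknown, so values near 0 FPKM carry no counting limit.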

Other observations

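Unnamed transcripts stood inside Igf2bp3 under other gene numbers. In SCP 2 a piece of 334 bases had 13.6 FPKM, above its own upper bound, and in SCP 3 pieces of 900 and 1459 bases had 3.89 and 3.45 FPKM. No such piece stood in SCP 1 or in the RSCs. With them added, Igf2bp3 stood at 36.3, 50.4 and 41.9 FPKM in the SCPs, and its log2 fold change was -4.97 (SE 0.18, adjusted p = 1.6e-05 by limma).

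In RSC 2 an unnamed Igf2bp2 transcript of 1795 bases stood at 7.21 FPKM, which took the gene there from 19.3 to 26.5 FPKM. In RSC 2 and RSC 3 the unnamed Hmga2 transcripts of the same gene number were short, at 1113 and 1014 bases and 6.34 and 6.14 FPKM, whereas that of RSC 1 spanned the gene. Top2a and Ccnd2, genes of dividing cells that are named after their values were seen, were listed at 0 in all 6 samples among named transcripts and stood at 62.6 to 79.8 and 65.5 to 81.4 FPKM in the SCPs once unnamed transcripts were added.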
